A study of Mus musculus with 4 samples.

Results

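In bone marrow of 5TMM myeloma mice, 73 of 39743 kept cells carried the transcripts of antibody-secreting plasma cells with an IgG or IgM heavy chain and had no UMI of Rhox5, a transcript of the injected myeloma line. Kept cells had at least 300 genes and at most 20% mitochondrial UMIs (unique molecular identifiers, which count captured RNA molecules). Members had at least 50 UMIs of Jchain, at least 3 of Xbp1 and at most 1 of Rhox5, and the most abundant of their 8 heavy-chain constant genes was not Igha. The same gates with Igha in the lead gave 143 IgA plasma cells, with which the 73 were compared. The members were thus chosen by their counts of Jchain, Xbp1, Rhox5 and heavy-chain constant genes, so Jchain, Xbp1, Rhox5 and the immunoglobulin genes are described here and not tested.

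The 4 mice were C57BL/KawRij mice injected intravenously with 5TGM1-luc cells, a luciferase-marked mouse myeloma line, at 6 weeks of age. After 3 weeks, 2 mice (vehicle 1 and vehicle 2) received vehicle and 2 mice (PM 1 and PM 2) received 10 mg/kg purinostat mesylate (PM), an inhibitor of class I and IIb histone deacetylases. Total marrow was taken after 24 h, red cells were lysed, and 1 droplet-based 3′ library was made per mouse. All 4 mice carried the myeloma line, so no mouse shows the marrow without it. The libraries held 86052982 and 69828595 UMIs with vehicle and 109447030 and 74388936 with PM. Pairs of libraries shared 18 to 39 cell barcodes.

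Plasma cells are the end stage of the B cell line. They enlarge the endoplasmic reticulum (ER) under the transcription factor Xbp1 and secrete antibody, with Jchain joining IgM and IgA into polymers. Class switching exchanges the first heavy-chain constant gene, Ighm, for Ighg1, Ighg2b, Ighg2c, Ighg3, Ighe or Igha, while the variable (V) genes of the cell stay as joined, so cells of different classes can descend from the same B cell. In the marrow, plasma cells of different classes live for long periods beside stromal and myeloid cells.

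The members numbered 18 in vehicle 1, 10 in vehicle 2, 26 in PM 1 and 19 in PM 2, against 22, 42, 50 and 29 IgA cells. Nearly all of them were IgG cells. Ighg2b led in 34 cells, Ighg2c in 23, Ighg1 in 14 and Ighm in 2, and Ighg3, Ighd and Ighe led in none. In PM 1, 18 of 26 cells were led by Ighg2b, while Ighg2b led in 6 of 18 cells of vehicle 1, 5 of 10 of vehicle 2 and 5 of 19 of PM 2. Ighg2c led in 10 of the 19 cells of PM 2. The 2 IgM cells came from PM 1 and PM 2, with 2730 and 4992 Ighm UMIs, and in the former 31.4% of the non-immunoglobulin UMIs were neutrophil transcripts. With 2 IgM cells no comparison of IgM with IgG cells was made.

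**Figure D1:**
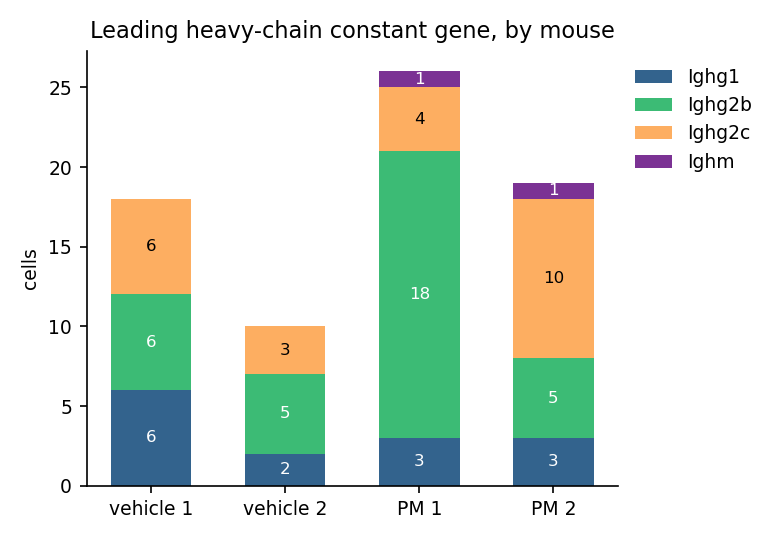
Number of IgG and IgM plasma cells (vertical axis, cells) in each mouse, stacked by the leading heavy-chain constant gene. Ighg2b takes 18 of the 26 cells of PM 1, and each PM mouse has 1 cell led by Ighm.

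The class of a cell was clear in nearly all cases. The leading constant gene took a median of 99.7% of a member's constant-gene UMIs, and at least 95% in 72 of 73 cells. The exception, a cell of PM 1, had 27 UMIs of Ighg2c, 71.1% of its constant-gene UMIs. In the 4646 to 8690 neutrophils of each mouse, which should lack antibody RNA, the median of each heavy-chain constant gene was 0 UMIs, with means of up to 1.34 (Ighm in PM 1). These neutrophils were chosen with a limit of 10 Jchain UMIs, so cells rich in plasma cell RNA were left out beforehand. The members' leading constant gene had a median of 6171 UMIs in Ighg1 cells, 3592 in Ighg2b cells and 6204 in Ighg2c cells.

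The label non-clonal was checked with the light-chain V gene, which the gates did not use. Cells that passed the same gates but had more than 1 Rhox5 UMI numbered 66 (0, 2, 54 and 10 in vehicle 1, vehicle 2, PM 1 and PM 2). All 66 were led by Ighg2b, and Igkv10-96 was the leading light-chain V gene in 63 of the 65 with such a UMI. Only 2 of the 72 members with a light-chain V gene had it in the lead, 1 an Ighg1 and 1 an Ighg2c cell (2.78%, with an exact 95% binomial interval of 0.338 to 9.68). The Rhox5 gate itself separated members from these cells, so Rhox5 counts are no check of the label. All 73 members had 0 Rhox5 UMIs, and the lowest count among the 66 other cells was 4. Immunoglobulin genes took 51.6% of the members' summed UMIs and 4.76% of those of the 66 cells. Plasma cell markers had a UMI in most members: Mzb1 in 73 of 73 cells, Sdc1 in 68, Irf4 in 66, Prdm1 in 55 and Tnfrsf17 in 45. Of 22641 neutrophils, a set that differs from the neutrophils above, 0.879%, 0.265%, 0.632%, 0.300% and 0.0133% had one. Median non-immunoglobulin depths were 10236 UMIs in members and 5245 in these neutrophils. Later neutrophil values are from this set.

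The V genes of the members were diverse. A heavy-chain V gene could be assigned in 72 cells and a light-chain V gene in 72, and these spread over 38 heavy and 40 light genes. The 71 cells with both held 63 different pairs. Ighv1-72 led in 9 cells from 2 mice, Ighv1-53 in 6 cells from all 4 mice, and Igkv5-39 in 6 cells from 2 mice. The light chain was kappa in 70 cells and lambda in 3. The 3 lambda cells were all Ighg2c cells of PM 2, led by Iglv1 in 2 of them and by Iglv2 in the other. Of the IgA cells 10 of 143 were lambda (6.99%, 95% Clopper-Pearson interval 3.40 to 12.5), and of the members 4.11% (0.856 to 11.5). Both intervals cover counting error only.

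Some pairs of V genes recurred within a mouse. The same heavy and light V genes led in 2 or more plasma cells of 1 mouse for 17 different pairs, of which 9 held at least 1 member and 4 held both a member and an IgA cell. The largest set was Ighv1-72 with Igkv8-21, which led in 6 cells of PM 1 (2 Ighg2b, 1 Ighg2c and 3 Igha cells) and in 2 cells of vehicle 1 (1 Ighg2b and 1 Igha cell). The reference segments are shown because this pair was found in cells of 3 classes. Ighv1-72 is a coding V segment on chr12:115757984-115758461 and Igkv8-21 on chr6:70314895-70315472, both on the minus strand of GRCm38 (GENCODE M21). The sequences are the last 240 bases of each spliced coding segment in the reference, not read from these cells, and capitals mark the last in-frame Tyr-Tyr-Cys codons, where the V segment nears its junction.
Ighv1-72: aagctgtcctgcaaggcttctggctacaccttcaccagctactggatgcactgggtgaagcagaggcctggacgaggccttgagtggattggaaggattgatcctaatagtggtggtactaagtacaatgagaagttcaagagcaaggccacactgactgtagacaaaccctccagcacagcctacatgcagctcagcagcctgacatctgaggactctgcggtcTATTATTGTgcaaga
Igkv8-21: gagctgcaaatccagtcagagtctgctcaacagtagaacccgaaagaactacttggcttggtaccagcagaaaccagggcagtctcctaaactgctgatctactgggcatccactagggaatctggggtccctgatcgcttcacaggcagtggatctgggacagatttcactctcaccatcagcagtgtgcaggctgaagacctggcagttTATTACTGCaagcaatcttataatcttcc

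In those 8 cells the Ighv1-72 count was 1 to 21 UMIs and the Igkv8-21 count 12 to 137 UMIs, so the heavy-chain call rests on few molecules. The counts per gene hold no junction sequence, and a common pair of V genes does not show descent from 1 B cell. Within the members alone, 2 Ighg1 cells of vehicle 1 had Ighv1-72 with Igkv12-46, 2 other Ighg1 cells of that mouse had Ighv7-3 with Igkv3-7, and 2 Ighg2b cells of PM 1 had Ighv3-6 with Igkv6-23. An Ighg2c and an Ighg2b cell held Ighv2-9 with Igkv12-41 in PM 1 and Ighv1-64 with Igkv5-39 in PM 2. Over 694 pairs of members of 1 mouse, the chi-square of their gene counts per degree of freedom had a median of 37.5 with all genes and 7.77 without immunoglobulin genes. The Ighv1-72 and Igkv12-46 cells (1.74) and the Ighv3-6 and Igkv6-23 cells (1.75) had the lowest values with all genes, which include the V and constant genes that paired them. Without immunoglobulin genes they stood at 1.61 and 1.58, and another pair, without a shared pair of V genes, was lower at 1.43. Whether each is 1 cell read under 2 barcodes was not tested.

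The share of members did not separate PM from vehicle mice. They made up 0.194% and 0.128% of the kept cells with vehicle and 0.194% and 0.205% with PM, and the groups overlap. The difference in means was 0.0385 percentage points (exact permutation test, two-sided, p = 0.667), and 2 mice against 2 cannot give a p under 0.333. Of the plasma cells under these gates the members took 45.0% (95% Clopper-Pearson interval 29.3 to 61.5) in vehicle 1, 19.2% (9.63 to 32.5) in vehicle 2, 34.2% (23.7 to 46.0) in PM 1 and 39.6% (25.8 to 54.7) in PM 2. Both PM values lie between the 2 vehicle values (exact permutation test, two-sided, p = 1). The gates set these shares, and no doublet caller was run.

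The members differed from IgA cells in Jchain, and in antibody RNA the difference varied between mice. Immunoglobulin UMIs took a median of 53.8% of a member's UMIs and 55.9% of an IgA cell's. By mouse the medians were 52.0%, 57.0%, 43.2% and 62.3% in members of vehicle 1, vehicle 2, PM 1 and PM 2, and 56.9%, 56.4%, 55.7% and 55.4% in IgA cells. Members were lower in vehicle 1 and PM 1 and higher in PM 2. The low value of PM 1 moved with neutrophil RNA, which is described further on. In the 14 members of PM 1 in which a list of neutrophil genes took under 2% of the non-immunoglobulin UMIs, the median was 54.2%, and in such IgA cells of that mouse 56.0%. Over such cells the medians were 53.9% and 58.7% in vehicle 1 and 62.4% and 56.0% in PM 2, so differences in opposite directions remained. Jchain stood at a median of 636 UMIs per 10000 non-immunoglobulin UMIs in members and 1672 in IgA cells. By mouse the members' medians were 380.3, 1198, 662 and 621 in vehicle 1, vehicle 2, PM 1 and PM 2, and those of IgA cells were 1588, 1693, 1649 and 1778. The members were lower in each mouse and spread more widely. With the neutrophil-rich cells left out, the medians were 557, 1198, 986 and 582 in members and 1607, 1708, 1652 and 1796 in IgA cells. No order of the IgG classes is given, since a mouse held as few as 2 Ighg1 cells. The lowest members had 51, 54 and 55 Jchain UMIs, just inside the gate, and the nearest cell outside it had 37. The lowest Xbp1 count of a member was 5, and the 1 cell that failed on Xbp1 alone had 2. Xbp1 per 10000 non-immunoglobulin UMIs had a median of 43.1 in members and 31.7 in IgA cells. In vehicle 1, vehicle 2, PM 1 and PM 2 it was 52.9, 42.9, 24.2 and 47.2 in members. The IgA cells had 33.7, 29.7, 28.9 and 36.9, so over all cells members were lower in PM 1 and higher in the other mice. These Xbp1 medians include the neutrophil-rich cells, 12 of the 26 members and 4 of the 50 IgA cells of PM 1. The order in PM 1 without those cells is not given.

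**Figure D2:**
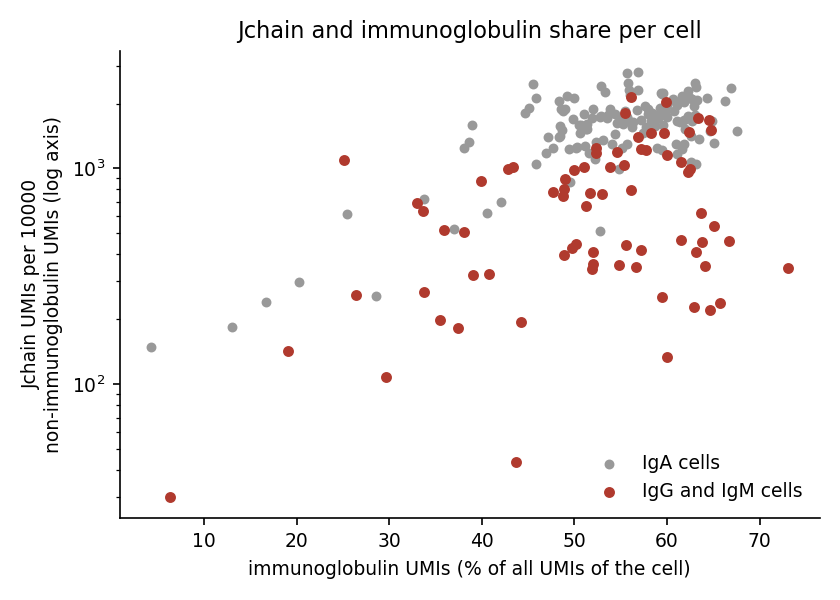
Each point is a plasma cell: immunoglobulin UMIs as a percentage of all its UMIs (horizontal axis) and Jchain UMIs per 10000 non-immunoglobulin UMIs (vertical log axis). IgG and IgM cells (red) reach the same immunoglobulin shares as IgA cells (gray), with a lower Jchain median (636 against 1672).

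Before expression was compared, transcripts of other cells were counted. A list of 10 neutrophil genes took 2.54%, 0.148%, 10.3% and 0.941% of the members' summed non-immunoglobulin UMIs in vehicle 1, vehicle 2, PM 1 and PM 2, and 4.09%, 1.84%, 2.55% and 3.05% in IgA cells. At least 2% of such UMIs were found in 4 of 18, 0 of 10, 12 of 26 and 1 of 19 members, against 3 of 22, 3 of 42, 4 of 50 and 2 of 29 IgA cells. Members thus carried the most neutrophil RNA in PM 1, in 46.2% of the cells (95% Clopper-Pearson interval 26.6 to 66.6). S100a9 was the most abundant gene of the list, and Elane alone was at 0 in the members of a mouse, vehicle 2. Erythroid genes summed to at most 106 CPM (the usual depth-scaled UMI unit, here relative to non-immunoglobulin UMIs) and monocyte and macrophage genes to at most 57.6 CPM in any mouse's members. Of 7 T and NK genes, Cd3e, Cd3g, Trac and Trbc1 were at 0 in all members, and the list summed to 106, 0, 160.0 and 4.84 CPM, with Nkg7 the most abundant. Of 7 B cell genes, Pax5 and Cd22 were at 0, and the list summed to 903, 1001, 935 and 1688 CPM, led by Cd79b. The 4 stromal genes summed to at most 9.67 CPM and the 3 basophil genes to at most 6.40 CPM. Results were fitted again without the cells with at least 2%, where the genes still reached the filter on low counts.

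**Figure D3:**
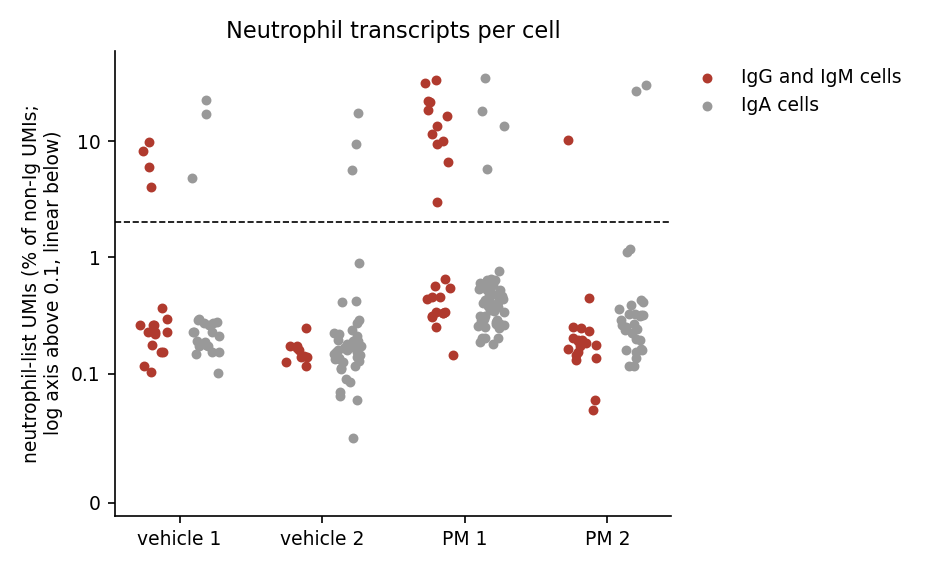
Neutrophil-list UMIs as a percentage of the non-immunoglobulin UMIs of each IgG or IgM (red) and IgA (gray) cell, by mouse; the vertical axis is logarithmic above 0.1 and linear below. The dashed line is 2%, and 12 of the 26 members of PM 1 lie above it, against 0 of 10 in vehicle 2.

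The comparison of the classes asked how IgG and IgM cells differ from IgA cells of the same marrow. Counts were summed per mouse and class without immunoglobulin genes, giving 83875 to 312417 UMIs per sum of members. With the mouse as a term in edgeR's quasi-likelihood test, 21 of 3647 genes were higher in the members (0.576%) and 43 were lower (1.18%), at a Benjamini-Hochberg adjusted p under 0.05 and an absolute log2 fold change over 0.5. Higher in the members were Pon3, Ms4a1 and 4 ER genes, and lower were the chemokine receptor Ccr10, the transcription factors Runx2 and Irf8, Bcl2 and the costimulatory receptor Cd28. With the cells rich in neutrophil RNA left out, 85 of 2725 genes were higher (3.12%) and 115 lower (4.22%), 7.34% in all, including 20 of the 21 and 41 of the 43. DESeq2 called 11 higher and 16 lower, 8 and 16 of them shared with edgeR, and the edgeR counts were 4 and 9 without vehicle 1, 4 and 7 without vehicle 2, and 62 and 63 without PM 1.

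Pon3, a lactone-hydrolyzing paraoxonase (chr6:5220852-5256286, minus strand, GRCm38), was the largest rise among genes that passed the test and were named by size. It stood at 471, 400.4, 108 and 523 CPM in the members of vehicle 1, vehicle 2, PM 1 and PM 2, and at 46.3, 40.8, 32.5 and 73.0 CPM in the IgA cells. The members were higher in each mouse and the classes did not overlap (log2 fold change 2.85 ± 0.28, SE, adjusted p = 0.000391, edgeR). A UMI of Pon3 was present in 56 of 73 members and 34 of 143 IgA cells, and in 0.451% of neutrophils.

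Ms4a1 encodes CD20, a surface protein of B cells that most plasma cells lose (chr19:11249675-11266241, minus strand, GRCm38). Its values were 170.0, 97.1, 223 and 373 CPM in members and 23.1, 40.8, 61.7 and 46.1 CPM in IgA cells, again without overlap (2.26 ± 0.30, adjusted p = 0.00233, edgeR). The other B cell genes did not all follow. Of 22 on the list 10 were tested, and 3 were higher and 0 lower. Their median log2 difference was −0.11, beside −0.02 over all genes tested. Cd74, the invariant chain that guides MHC class II, was higher (4224, 3967, 2993 and 4678 CPM against 1698, 1842, 2618 and 2343; 0.90 ± 0.17), and so was the surface glycoprotein gene Cd52 (0.83 ± 0.18). The MHC class II gene H2-Aa was at 10.6, 12.1, 42.6 and 33.0 CPM in members and 4.63, 64.1, 169 and 73.0 in IgA cells, which did not pass (adjusted p = 0.106, edgeR); without the cells rich in neutrophil RNA it was called lower (−1.23 ± 0.39, adjusted p = 0.0362, edgeR).

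Most ER genes had a value above 0, and few passed the test. Of 59 genes of the secretory machinery, 56 were tested, 44 of them had a value above 0, 4 passed as higher and 1 as lower. Their median log2 difference was 0.20, beside −0.02 over all genes tested. Values above 0 were not particular to ER genes, since 72 of 81 ribosomal protein genes and 12 of 12 mitochondrial transcripts tested had them too. Sel1l, the adaptor of the ligase that disposes of misfolded ER proteins (chr12:91806043-91849157, GRCm38), stood at 1264, 1286, 1068 and 1188 CPM in members and 625, 729, 581 and 649 in IgA cells (0.90 ± 0.14, adjusted p = 0.00655, edgeR). All 4 member values lie above all 4 IgA values. Ssr4, a subunit of the complex beside the translocon, Ero1lb, an oxidase that feeds disulfide formation, and the ER peroxiredoxin Prdx4 rose by 0.92 ± 0.17, 1.14 ± 0.22 and 1.14 ± 0.25. In PM 1 the difference in Prdx4 was small, 396 against 361 CPM. Erlec1, a lectin that recognizes ER glycoproteins, was named by size and not from this list, with 432, 570.2, 255 and 339.6 CPM against 120.3, 172, 211 and 134 (1.27 ± 0.26).

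The exception was Txndc5, a thioredoxin-domain disulfide isomerase (chr13:38500079-38528824, GRCm38). It was at 2132, 1808, 865 and 1349 CPM in members and 3285, 3673, 2849 and 2585 in IgA cells (−1.07 ± 0.17, adjusted p = 0.00614, edgeR). Without the cells rich in neutrophil RNA, 13 of 55 ER genes were higher and Txndc5 alone was lower, and the list's median was 0.38, beside −0.01 over all genes tested. Among those 13 were Mzb1, the marginal zone B cell chaperone, Pdia6, Creld2 and Fkbp11. The 81 ribosomal protein genes had a median of 0.20, with 0 called by edgeR in either direction with all cells and 2 higher (Rpl26 and Rps7) without those rich in neutrophil RNA.

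Ccr10 gave the clearest difference among receptors. It is the receptor for the chemokines CCL27 and CCL28 and is known from IgA plasma cells of mucosal origin (chr11:101172997-101175443, minus strand, GRCm38). It stood at 17.7, 84.9, 29.5 and 28.3 CPM in members and 227, 178, 283 and 246 in IgA cells (−2.85 ± 0.36, adjusted p = 0.00179, edgeR). A Ccr10 UMI was present in 17 of 73 members and 91 of 143 IgA cells, and in 0.278% of neutrophils. Median non-immunoglobulin UMIs per cell were 10236 in members and 7385 in IgA cells, and in vehicle 2 alone 8247.5 and 8705.5. Whether depth affected these counts was not tested. Of 19 homing and retention genes 12 were tested and Ccr10 alone passed with all cells. Without those rich in neutrophil RNA, 10 were tested, and the integrin gene Itga4 was called higher (0.59 ± 0.19) beside Ccr10. Ccr9, the receptor of the gut chemokine CCL25, was at 0, 48.5, 42.6 and 14.1 CPM in members and 50.9, 49.6, 29.2 and 7.68 in IgA cells. The marrow homing receptor Cxcr4 was at 266, 97.1, 154 and 174 CPM against 120.3, 67.0, 78.0 and 154, and did not pass (adjusted p = 0.213, edgeR).

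Of the factors linked to a class, Runx2 was lower in the members. Its values were 10.6, 36.4, 26.2 and 9.43 CPM against 134, 137, 107 and 96.04 in IgA cells (−2.63 ± 0.37, adjusted p = 0.00284, edgeR), without overlap. RUNX factors act downstream of TGF-beta in switching to IgA. Of 9 listed genes 3 were tested, and the others, Runx3 (−0.81 ± 0.37) and the TGF-beta receptor gene Tgfbr1 (−1.24 ± 0.36), did not pass (adjusted p = 0.422 and 0.121, edgeR).

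St6gal1, a sialyltransferase that modifies surface glycoproteins, was chosen after its values were seen. It was at 188, 328, 239 and 283 CPM in members and 763, 737, 734 and 734 in IgA cells (−1.55 ± 0.20, adjusted p = 0.00179, edgeR), with the classes far apart.

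Surface and survival genes went both ways. Of 21 listed 18 were tested, and 1 was higher and 2 were lower, beside 0.576% and 1.18% of all genes tested. The list's median log2 difference was −0.09, beside −0.02 over all genes tested. Without the cells rich in neutrophil RNA, 2 of 16 were higher (Epcam and Ly6d) and 4 were lower (Cd28, Tnfrsf17, Cd93 and Tnfrsf13b). Over all genes of that fit 3.12% were higher and 4.22% lower, and the list's median was −0.11. Epcam, an adhesion molecule, was higher in members (276, 194, 102 and 137 CPM against 55.5, 67.0, 61.7 and 42.3; 1.55 ± 0.29). Lower were Cd28, which carries survival signals in plasma cells (81.4, 97.1, 85.2 and 127 CPM against 268, 242, 292 and 230.5; −1.43 ± 0.24), and Tnfrsf17, the gene of the survival receptor BCMA (99.1, 84.9, 98.3 and 123 against 333, 338, 214 and 169; −1.28 ± 0.26). Neither pair of ranges overlapped. Bcl2, which blocks apoptosis, was at 38.9, 109, 39.3 and 28.3 CPM in members and 143, 184, 172 and 131 in IgA cells (−1.75 ± 0.30, adjusted p = 0.00951, edgeR). It was the only one called of 3 tested among 13 genes of the BCL2 family, and Mcl1 stood at 974, 692, 553 and 788 CPM against 874, 769.5, 672 and 538.

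A larger difference, in Ly6c2, did not pass the test. Ly6c2, a gene of the Ly6 surface family found on myeloid cells and on some plasma cells (chr15:75108158-75111970, GRCm38), stood at 5095, 3385, 3734 and 7753 CPM in members and at 222, 125, 763 and 845 CPM in IgA cells. The classes were far apart in every mouse (3.65 ± 0.59), but the ratio varied between mice and the adjusted p was 0.130 (edgeR). Per cell, Ly6c2 had a median of 32.6 UMIs per 10000 non-immunoglobulin UMIs in members (interquartile range 10.9 to 59.8, highest 369.8) and 1.34 in IgA cells (0 to 4.38). Neutrophils had a median of 11.97, and without the cells rich in neutrophil RNA the log2 difference was 3.77. Whether neutrophil RNA contributed to Ly6c2 in members was not tested. By class Ly6c2 stood at 4694 CPM in Ighg1, 4514 in Ighg2b and 6471 in Ighg2c cells. The 2 Ighm cells, with 841 CPM from 13 UMIs, were not compared with them. The related Ly6d (1.17 ± 0.26, adjusted p = 0.0595, edgeR) and Ly6a (1.05 ± 0.46, adjusted p = 0.509, edgeR) did not pass either. Without the cells rich in neutrophil RNA, Ly6d was called higher (1.40 ± 0.16).

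The cell cycle gene Ccnd2, cyclin D2, was chosen after its values were seen. It was at 1441, 1419, 436 and 693 CPM in members and 282, 75.8, 179 and 196 in IgA cells, without overlap, and did not pass (2.36 ± 0.53, adjusted p = 0.177, edgeR). Of 22 listed cell cycle genes 6 were tested and 0 passed in edgeR. Without the cells rich in neutrophil RNA, 2 were tested and Hmgb2, a chromatin protein gene, was called lower (−1.94 ± 0.32).

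The further genes named by size were higher in each mouse. They were Oosp1 (2.83 ± 0.39), Csf2rb, the common beta subunit of the IL-3, IL-5 and GM-CSF receptors (1.99 ± 0.35), the cytochrome P450 gene Cyp4f18 (1.89 ± 0.33), the nucleic acid sensor Zbp1 (1.62 ± 0.26), the prolactin receptor gene Prlr (1.41 ± 0.31), the sulfotransferase Tpst1 (1.22 ± 0.27) and the interferon receptor gene Ifnar2 (1.20 ± 0.26). Csf2rb is also a myeloid gene. Without the cells rich in neutrophil RNA it stood at 135, 49.0, 103 and 86.5 CPM in members and 0, 10.1, 18.5 and 21.2 in IgA cells. Csf2rb was not tested between the classes in that fit. Zbp1 was the only one called among 10 tested genes of the interferon response list, whose median was 0.05.

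Lower in each mouse were Dnm3, a dynamin (−2.99 ± 0.56), Zfp280b (−2.71 ± 0.35), the noncoding RNA Gm19585 (−2.60 ± 0.33), the adaptor Sh3bp2 (−2.37 ± 0.54), Irf8, a transcription factor of B cells and myeloid cells (−2.27 ± 0.36), Ahnak (−2.24 ± 0.46), the sodium pump subunit Atp1b1 (−2.06 ± 0.25), the cytokine signaling inhibitor Socs2 (−2.01 ± 0.36), Gimap5 (−1.92 ± 0.42) and the potassium channel subunit Kcnmb4 (−1.91 ± 0.41). Irf8 stood at 35.4, 12.1, 16.4 and 28.3 CPM in members and 83.3, 119.5, 87.7 and 215 in IgA cells, and no Irf8 UMI was found in the 14 Ighg1 cells. Dnm3 was at 0 in PM 1, and Sh3bp2 and Ahnak were at 0 in vehicle 2, so their fitted sizes depend on the prior count. Sh3bp2 lost its call in 9 of the 14 alternatives that gave it a value, with DESeq2 among them.

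**Figure D4:**
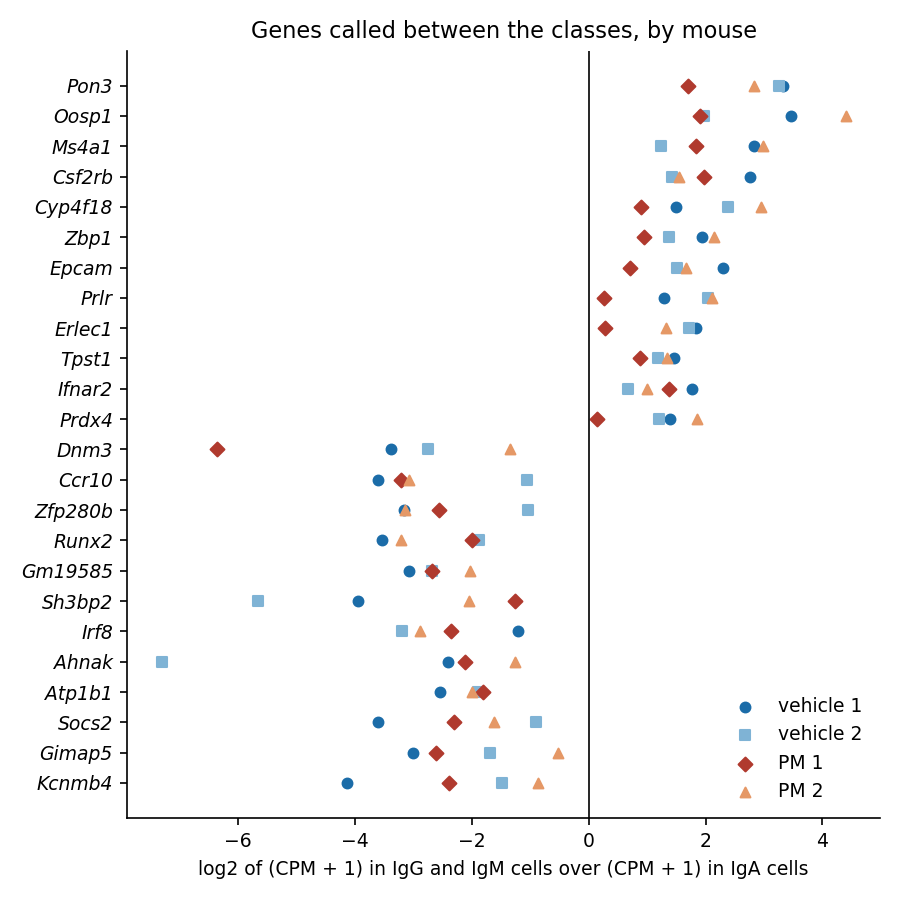
Log2 ratio of CPM + 1 in IgG and IgM cells to CPM + 1 in IgA cells (horizontal axis) for the 24 genes named by size (rows), with 1 symbol per mouse. All points of the upper 12 genes lie above 0 and all points of the lower 12 below it; PM 1 (diamonds) is nearest to 0 for 9 of the upper 12 genes, all but Ms4a1, Csf2rb and Ifnar2.

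The transcription factors that define plasma cells gave no call between the classes. Of 9 tested plasma cell transcription factors 0 passed in edgeR (0 also without the cells rich in neutrophil RNA), with a median of −0.04. Irf4, which maintains plasma cells, stood at 1006, 679, 416 and 656 CPM in members and 786, 653, 639.9 and 553 in IgA cells (0.01 ± 0.19). Prdm1, the gene of Blimp-1, was at 287, 473, 138 and 321 CPM against 611, 493, 341 and 299.6 (−0.59 ± 0.25, adjusted p = 0.379, edgeR), and the plasma cell surface gene Sdc1 at 436, 619, 364 and 472 against 472, 694, 649.6 and 473 (−0.28 ± 0.19, adjusted p = 0.655, edgeR). Of 12 MHC class I and peptide loading genes, 9 genes of the integrated stress response and 12 mitochondrial transcripts tested, edgeR called 0, with medians of 0.05, −0.0036 and 0.15. Nor did any of 11 immediate early genes or of 2 tested of the 6 genes of deacetylases that PM inhibits. Without the cells rich in neutrophil RNA, B2m, the light chain of MHC class I, was called higher (0.69 ± 0.13), and of the immediate early genes Btg2 was called higher (0.72 ± 0.19) and Egr1 lower (−0.82 ± 0.20).

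The second comparison asked what PM changed in the members within 24 h. With all 73 cells, edgeR called 0 of 3600 genes higher and 0 lower after PM (0% of those tested). In counts simulated from these sums without a PM effect, the same test called 9 of 3293 genes. With 200 genes changed, it recovered 0% of the changes of log2 1 and 35.5% of those of log2 2. The 0 calls thus do not show that changes of these sizes were absent. At an unadjusted p under 0.05 there were 45 higher and 56 lower, and the smallest adjusted p was 0.914; DESeq2 also called 0, with 11 and 11 at an unadjusted p under 0.05. Leaving out 1 mouse gave 44 higher and 21 lower without PM 2, 25 and 4 without vehicle 1, 4 and 4 without PM 1, and 0 and 1 without vehicle 2. The members of PM 1 and PM 2 differed in neutrophil RNA (10.3% and 0.941%). With the 17 cells rich in it left out, which left 14, 10, 14 and 18 cells, edgeR called 8 of 2244 genes higher (0.357%) and 11 lower (0.49%), 0.847% in all. DESeq2 called 0 on the same cells (smallest adjusted p = 0.611; 18 higher and 13 lower at an unadjusted p under 0.05). None of the 19 genes was called in every fit that left out 1 mouse, and Ms4a1 and Vpreb3 were called in none of them, so the values below are given for cells without much neutrophil RNA and as dependent on the tool and on single mice. All 19 had the same direction with all 73 cells, where none was called. Those 73 include the cells of this fit, so the same direction is no independent support.

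Of 22 B cell genes 8 were tested, all 8 had a value above 0, and 2 were called higher (Ms4a1 and H2-Eb1). Their median log2 difference was 0.45, beside −0.01 over all genes tested. Of the other genes called, Pou2af1, a coactivator needed for antibody-secreting cells, stood at 1221 and 612 CPM in members with vehicle and 338 and 392 with PM (−1.36 ± 0.28, adjusted p = 0.000839, edgeR). Both PM values lie below both vehicle values. It was the only one called of 9 plasma cell transcription factors. In IgA cells Pou2af1 was at 999.9 and 859 CPM with vehicle and 659 and 534 with PM. Ccnd2 stood at 1780.1 and 1432 CPM with vehicle and 752 and 717 with PM (−1.14 ± 0.24, adjusted p = 0.00181, edgeR). Ms4a1 was at 166 and 97.9 CPM with vehicle and 273 and 392 with PM (1.26 ± 0.36, adjusted p = 0.0486, edgeR), and the B cell gene Vpreb3 at 238 and 220.4 against 526 and 503 (1.15 ± 0.31). In the MHC class II gene H2-Eb1 vehicle 2 was at 0, and the values were 31.0 and 0 CPM against 197 and 66.1.

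The rise with the smallest adjusted p was Ifi27l2a, an interferon-stimulated gene, with 46.6 and 12.2 CPM with vehicle and 367 and 142 with PM (2.71 ± 0.47, adjusted p = 2.5e-05, edgeR). In IgA cells it was at 64.1 and 53.9 CPM with vehicle and 299.9 and 136 with PM. It was the only one called of 8 interferon response genes tested, which had a median of 0.31 beside −0.01 over all genes tested. Hes1, a transcriptional repressor and target of Notch, was at 31.0 and 24.5 CPM with vehicle and 84.6 and 183 with PM (2.28 ± 0.54). Mt2, a metallothionein, was at 150.1 and 379.5 against 677 and 585 (1.38 ± 0.31), Tmsb4x, which binds actin, at 517 and 269 against 1071 and 844 (1.20 ± 0.28), and Cyp4f18 at 88.0 and 282 against 442 and 351 (1.28 ± 0.35).

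Among immediate early genes and the other falls, 1 PM mouse lay close to a vehicle mouse in Fos and Klf4. Fos stood at 2965 and 2179 CPM with vehicle and 893 and 2019 with PM (−0.81 ± 0.23, adjusted p = 0.0486, edgeR), with PM 2 close to vehicle 2. It was the only one called of 11 immediate early genes. Klf4 was at 238 and 85.7 CPM against 84.6 and 10.2 (−2.24 ± 0.49), with PM 1 close to vehicle 2. The sulfotransferase Chst1 was at 228 and 85.7 against 47.0 and 20.3 (−2.51 ± 0.50), Irs2, an adaptor of insulin receptors, at 233 and 208 against 37.6 and 107 (−1.47 ± 0.40), and the kinase gene Pik3cg at 476 and 257 against 159.8 and 168 (−1.22 ± 0.34). Zfp36l2, which destabilizes mRNA, was at 476 and 367 against 56.4 and 234 (−1.42 ± 0.34). Cpeb3 and Sbno2 were lower in both PM mice too, while Tuba1a was at 295 and 61.2 against 28.2 and 91.5, with overlapping groups. Of 55 ER genes and 80 ribosomal protein genes 0 passed in edgeR in this comparison.

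**Figure D5:**
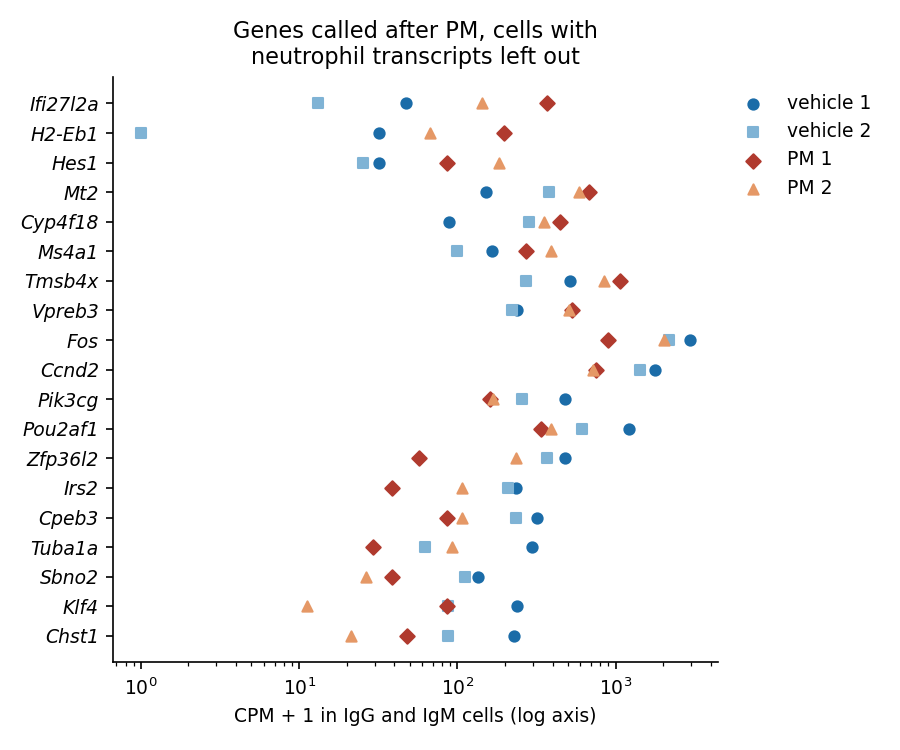
CPM + 1 (horizontal log axis) in the IgG and IgM cells of each mouse for the 19 genes called by edgeR after PM (rows), with cells of at least 2% neutrophil UMIs left out. The PM mice (red and orange) lie above the vehicle mice (blue) in the upper 8 rows and below them in the lower 11, except in Tuba1a, where PM 2 exceeds vehicle 2, and Klf4, where PM 1 and vehicle 2 nearly coincide.

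The third comparison asked whether PM changed the members otherwise than the IgA cells, with the interaction of treatment and class. One gene, Ifitm1, an interferon-induced membrane protein, passed among 4670 (1 higher, 0.0214%; 0 lower). It stood at 21.2 and 12.1 CPM in members with vehicle and 167 and 104 with PM, and at 213 and 75.8 CPM in IgA cells with vehicle and 78.0 and 15.4 with PM (4.81 ± 0.74, adjusted p = 0.0479, edgeR). With the cells rich in neutrophil RNA left out it was at 31.0 and 12.2 CPM in members with vehicle and 37.6 and 25.4 with PM, and at 12.8 and 16.9 against 14.8 and 17.0 in IgA cells. At these levels Ifitm1 did not reach the filter on low counts and was not tested. DESeq2 called 0 genes in this comparison, with 13 higher and 4 lower at an unadjusted p under 0.05.

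Without those cells the interaction called 1 gene higher and 1 lower among 3548, both chosen here after their values were seen. Ly6c2 was at 6210 and 3416 CPM in members with vehicle and 3750 and 7979 with PM, with overlap. In IgA cells it was at 173 and 111 CPM with vehicle and 681 and 814 with PM (interaction −2.15 ± 0.32, adjusted p = 6.6e-05, edgeR). The metallothionein gene Mt1 was at 114 and 1126 CPM in members with vehicle and 2697 and 1368 with PM, and at 167 and 1106 CPM against 648 and 305 in IgA cells (interaction 2.26 ± 0.34, adjusted p = 6.6e-05, edgeR). In both classes the ratio of Mt1 between the 2 vehicle mice exceeded that between the 2 PM mice.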

How the data were processed

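Cell Ranger 6.0.1 was run by the authors against a mouse reference, and raw UMI counts per gene and barcode were deposited for each mouse without normalization; the methods name GRCm38 and the labels' processing notes GRCm39. Of 32285 gene IDs 32158 are in GENCODE M21 (GRCm38), used for positions. The limits on genes and mitochondrial UMIs that the methods state were applied, and they left 39743 cells, more than the study retained. The members, gene lists and tests were chosen with earlier results of these data known. The 392 immunoglobulin genes were left out of library sizes and tests.

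Counts were summed per mouse and class and fitted with edgeR 4.0.16 (quasi-likelihood, TMM, filterByExpr). CPM are TMM-scaled. Calls required a Benjamini-Hochberg adjusted p under 0.05 and an absolute log2 fold change over 0.5. Mice are the replicates, and the number of cells per sum (10 to 50) limits precision. DESeq2 1.42.0, other scalings, filters, gates, thinning to 1000 UMIs and single mice left out were alternatives. Fits after leaving out cells of at least 2% neutrophil UMIs with DESeq2, or with 1 mouse left out, were chosen after seeing the data. No doublet caller was run. Leaving out cells of at least 2% neutrophil UMIs can remove doublets with neutrophils only.

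Named genes were the 12 largest rises and falls between the classes and the 10 largest for PM and the interaction, taken from calls whose average level reached 20 CPM and that went 1 way in all mice (classes) or all vehicle-PM pairs (PM), and the members of the gene lists. Genes called after PM without neutrophil-rich cells, St6gal1 and Ccnd2 were chosen after their values were seen.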

Additional observations from a re-analysis of the deposited data

Results flagged for a closer look

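The effect of PM on Ifitm1 differed between IgG and IgM cells and IgA cells by 4.81 on the log2 scale, in a test of the difference itself (adjusted p = 0.0479, edgeR interaction, Benjamini-Hochberg). The interaction passed in 7 of the 14 alternatives that gave a value, with adjusted p from 9.63e-07 to 1, and it had the same sign in all of them. Without cells rich in neutrophil RNA, Ifitm1 was at 31.0 and 12.2 CPM in IgG and IgM cells with vehicle and 37.6 and 25.4 with PM, and at 12.8 and 16.9 against 14.8 and 17.0 in IgA cells. The large difference was not seen at these levels, which did not reach the filter on low counts and were not tested. Of 24 genes named between the classes, 0 had a mouse whose ratio stood apart from the other 3 at Dixon's 95% level, and the highest Dixon values were 0.812 (Ahnak) and 0.792 (Ccr10), with vehicle 2 the farthest mouse in both.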

How the results depend on the processing

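Between IgG or IgM and IgA cells, the number of genes called higher (21) became 11 with DESeq2, 58 without the filter on low counts, 85 without cells rich in neutrophil RNA, 37 with DESeq2 on the same cells and 13 with cells thinned to 1000 non-immunoglobulin UMIs, where 283 genes were tested. The number called lower (43) became 16, 91, 115, 28 and 10 in the same order, and 28 with at least 100 Jchain UMIs per cell. Leaving out 1 mouse gave 4 to 62 higher and 7 to 63 lower, with 4 and 9 without vehicle 1, 4 and 7 without vehicle 2, and 62 and 63 without PM 1. For PM against vehicle, 0 and 0 became 6 higher and 3 lower without the filter and 8 and 11 without cells rich in neutrophil RNA. Leaving out 1 mouse gave 0 to 44 higher and 1 to 21 lower with all cells (25 and 4 without vehicle 1, 0 and 1 without vehicle 2, 4 and 4 without PM 1, 44 and 21 without PM 2), and 3 to 6 higher and 3 to 27 lower without cells rich in neutrophil RNA (27 lower without vehicle 2). In the interaction, the 1 gene called higher became 0 with DESeq2, RLE size factors, immunoglobulin genes in the library size, at least 100 Jchain UMIs, thinned cells, or at least 500 genes and at most 10% mitochondrial UMIs, and 3 without the filter. The 0 called lower became 2 without the filter and 1 without cells rich in neutrophil RNA. Leaving out 1 mouse gave 0 to 33 higher (10 without PM 1, 33 without PM 2) and 0 to 25 lower (25 without PM 1, 3 without PM 2). The cause of these changes was not tested. In fits that leave 1 mouse in a group, that mouse is assumed to vary like the others.

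The replicate numbers are not stated to pair the mice. With the replicate number as a block, PM against vehicle gave 33 higher and 8 lower, and the interaction 1 and 0. Without the block by mouse, the class comparison gave 28 higher and 48 lower. The deviations of same-numbered mice correlated at 0.425 over 3600 genes, from 2 pairs.

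Of 25 named results, 321 of 393 values under alternatives kept their direction and call, 72 kept the direction and lost the call, and 0 reversed. Called in each alternative with a value were Atp1b1, Ccr10, Gm19585, Ms4a1, Pon3 and Zfp280b. Of the 24 genes named between the classes, 17 lost the call without vehicle 1, 16 without vehicle 2, 0 without PM 1 and 6 without PM 2. Depth was limited by the 10 members of vehicle 2, with 83875 non-immunoglobulin UMIs in all.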
